A study of Homo sapiens with 6 samples.

Results

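The genes described here are 9 tubulin isotypes (TUBB, TUBB2A, TUBB2B, TUBB3, TUBB4B, TUBB6, TUBA1A, TUBA1C and TUBA4A) and stathmin (STMN1). Their 16 probe sets were all those of which the array annotation names 1 of these 10 genes and no other, out of 54613. Of the 54613 probe sets, 41091 name 1 gene alone, for 19775 genes in all. A further 2 probe sets name a member together with another gene and were left out. RNA of the human ovarian carcinoma lines Caov-3 and SKOV-3 was measured on 6 Affymetrix arrays. Each line was given the anti-IL-6 antibody siltuximab (CNTO328) for 4 h followed by interleukin-6 (IL-6, 30 ng/ml) for 1 h, or IL-6 alone for 1 h, or was left untreated. Each of these 6 groups was 1 array, hybridised with RNA pooled from 3 flasks of cells, so that each condition stands on 1 established line and 1 measurement, and no antibody-only sample was analysed here. The study asked what the antibody does to gene expression induced by IL-6.

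Microtubules are hollow polymers of alpha-tubulin and beta-tubulin dimers. The isotypes are encoded by separate genes and differ mostly in their tails, which carry modifications and bind partner proteins. Beta-tubulin is the protein to which paclitaxel, a standard drug of ovarian carcinoma, binds, and a high level of the isotype encoded by TUBB3 has been linked to taxane resistance. Stathmin binds free tubulin dimers and promotes microtubule disassembly, and phosphorylation in mitosis switches it off.

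The arrays had been scaled alike (trimmed mean 500.06 to 500.07). The epithelial markers KRT7, KRT8 and KRT18 were at 6840 or higher on every array, whereas CDH1 and KRT19 were at 4763 to 5094 and at 7263 to 7936 in Caov-3 against 11.0 to 27.5 and 4.40 to 57.9 in SKOV-3. Of 4 ovarian carcinoma markers, PAX8 was at 971 to 1056 in Caov-3 and 495 to 683 in SKOV-3, MUC16 at 593 to 859.9 in Caov-3 and 2.90 to 5.90 in SKOV-3, and MSLN at 1961 to 2332 in Caov-3 and 8.60 to 28.5 in SKOV-3. The fourth, WT1, was at 19.3 or lower on all 6 arrays. Of 5 leukocyte markers on the array, 2 (PTPRC and CD3E) were below the array's median signal (72.6 to 89.6) on all 6 arrays, as were 4 of 7 fibroblast and endothelial markers, COL1A2, PDGFRB, VWF and CDH5. The summed signals were 884 to 970.1 in Caov-3 and 367.5 to 740.0 in SKOV-3 for the leukocyte list, and 4881 to 5919 in Caov-3 and 521 to 638 in SKOV-3 for the other. CD14 (573 to 667), COL1A1 (3802.5 to 4826) and PECAM1 (331 to 1162) were higher in Caov-3 than in SKOV-3 (77.6 to 134.6, 217 to 339 and 125 to 176), and their part in the line differences was not tested. The leukocyte markers CD79A (149 to 201 in Caov-3, 180.0 to 344 in SKOV-3) and LCP1 (37.2 to 87.6 and 50.8 to 169.6) overlapped between the lines. Both leaned lower in Caov-3 (log2 difference -0.44 and -0.62), without a call. THY1 also overlapped (54.7 to 108.7 and 35.9 to 59.9). The ratio of 5' to 3' ACTB signal, which falls with RNA degradation, was 0.494 for IL-6 in Caov-3 and 0.643 to 0.767 on the other 5 arrays. The same ratio of GAPDH was 1.053 on that array and 0.957 to 1.066 over all 6. In RNA of whole cultures, fewer cells that use a gene and less of its RNA per cell cannot be told apart.

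The largest contrast among the members was between the lines. Caov-3 had far more TUBB2B and far less TUBB2A than SKOV-3, less TUBB3, TUBB4B and STMN1, and more TUBB6, TUBA4A, TUBB and TUBA1A, with the TUBB probe sets unlike in size. TUBA1C was near the same level in both. In limma, fitted over all probe sets with line and treatment as factors, 7 of 15 tested member probe sets were higher and 6 lower in Caov-3 at an adjusted p under 0.05. The 3 arrays of a line are 3 treatments and not replicates. The p-values measure the difference against how unlike the treatments' effects were in the 2 lines. In the fit that spread was moderated towards the spread of probe sets of like brightness (the trended prior). Background in that comparison was high, with 55.2% of 31006 probe sets called (27.6% higher and 27.6% lower). Bright probe sets were called more often, at 74.2% (37.1% higher and 37.1% lower) in the brightest of 10 expression groups, which held 12 of the 15 members. All 3 Caov-3 arrays lay above all 3 SKOV-3 arrays in 5 members, against 31.7% of probe sets, and below them in 6, against 33.3%, and the lines were apart in 64.9% of probe sets in all. The 16th probe set, STMN1 1552803_a_at, was dim (4.80 to 68.5) and did not pass the filter, which asks for at least 2 arrays at or above their median. The median line difference was 0.06 over the 15 (log2) and -0.04 over all probe sets.

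**Figure D1:**
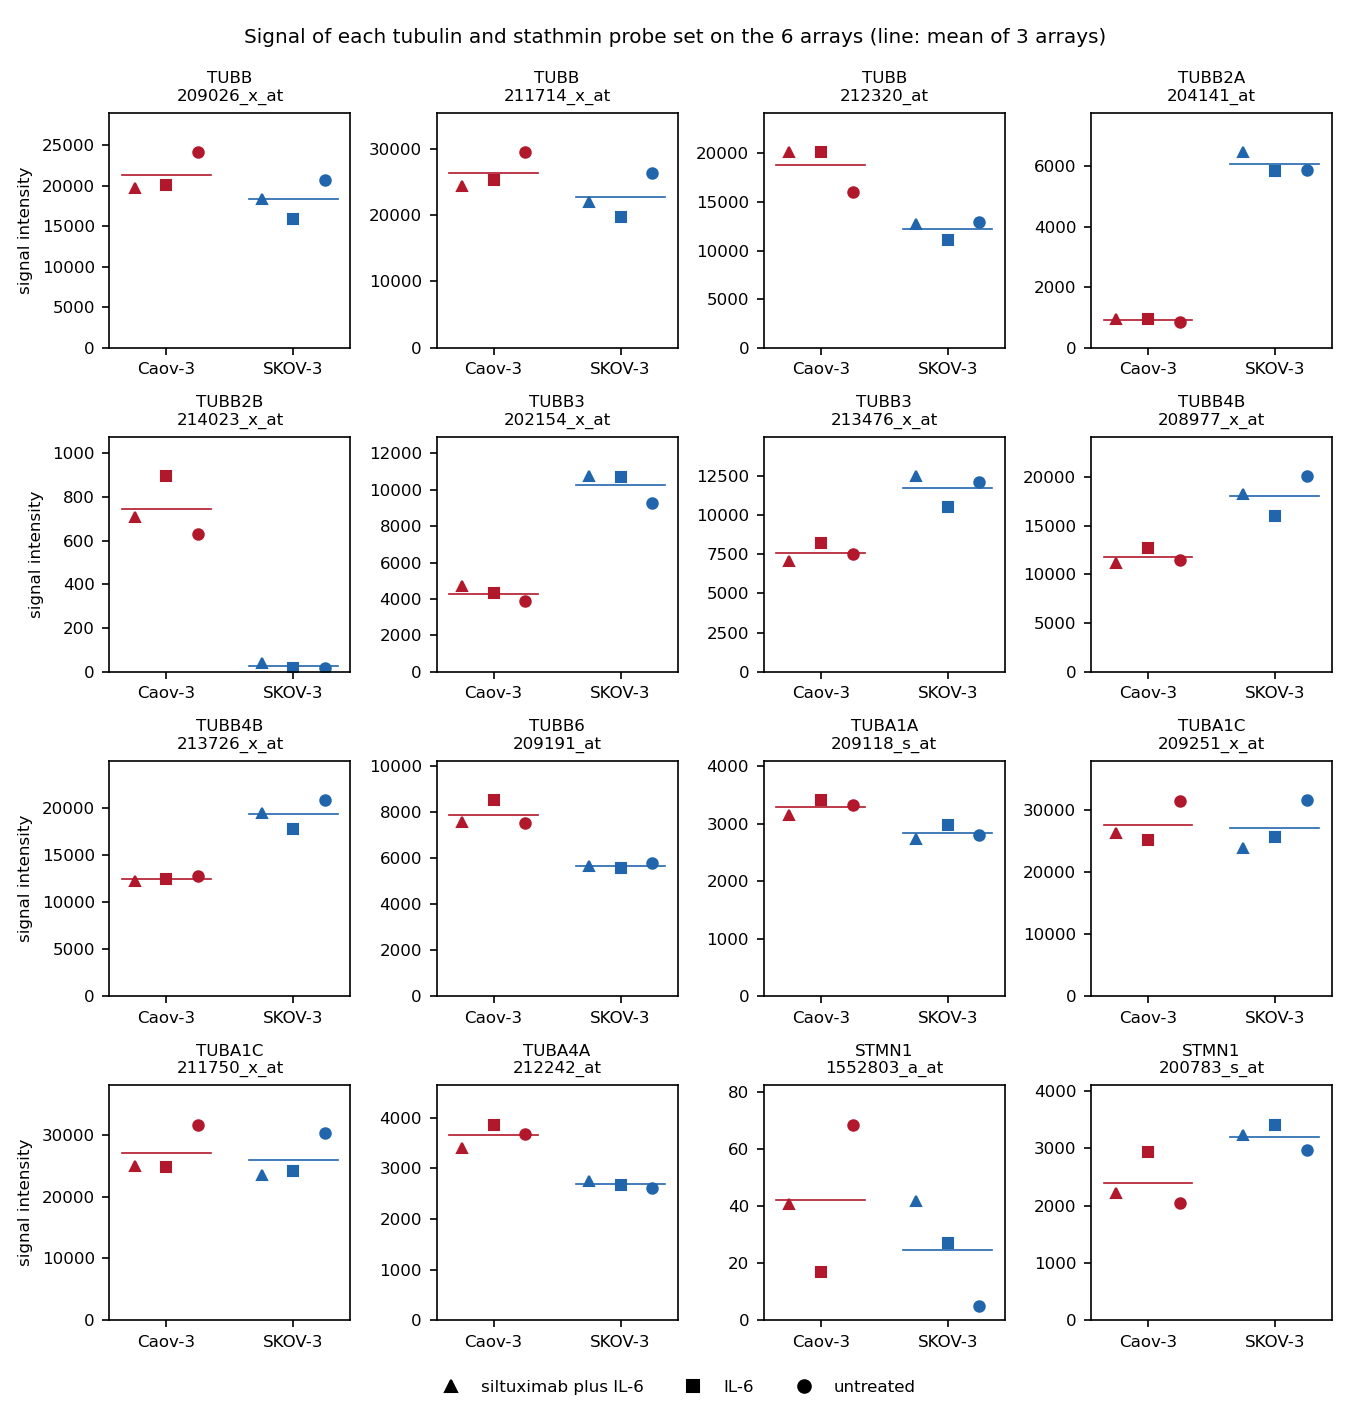
Signal intensity (linear axis from 0) of each of the 16 probe sets on the 6 arrays, with Caov-3 in red left of SKOV-3 in blue, 1 point per array, marker shape for treatment, and a horizontal line at the mean of 3 arrays. TUBB2A is at 863 to 949.7 in Caov-3 and 5822 to 6461.5 in SKOV-3, and TUBB2B stands the other way.

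The pair that differed most was TUBB2A and TUBB2B, close relatives that both encode beta-tubulins abundant in brain, and that lie next to each other on chromosome 6 with 0 annotated protein-coding genes between them (GRCh38.p14). TUBB2A (204141_at) was in Caov-3 at 949.7 with siltuximab and IL-6, 933 with IL-6 and 863 untreated. In SKOV-3 it was at 6461.5 with siltuximab and IL-6, 5822 with IL-6 and 5885 untreated. The lines did not overlap, and the difference was -2.71 on the log2 scale (SE 0.0783, limma adjusted p 2.38e-05), or 6.53-fold lower in Caov-3.

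TUBB2B (214023_x_at) was in Caov-3 at 709 with siltuximab and IL-6, 894 with IL-6 and 631 untreated. SKOV-3 had 40.5 with siltuximab and IL-6, 16.1 with IL-6 and 17.1 untreated, all below the median of their arrays. The line difference was 4.34 (SE 0.29, limma adjusted p 0.000176). It passed the filter only through the Caov-3 arrays, so that a difference was built in, and without it 12 of 14 tested probe sets were called. Its size depends on the pseudocount (14.06) added before taking logs, with 4.98 at a pseudocount of 1 and 2.96 at the median of all values. A probe set that names both genes (209372_x_at) was at 1126, 779 and 969.8 in Caov-3 and 905, 871 and 789 in SKOV-3 (siltuximab and IL-6, IL-6, untreated), so that the lines overlapped in it. Probe sets ending in _x_at may detect related sequences, and in a family as alike as the tubulins the signal of one isotype cannot be told apart from that of its relatives there. Of the 15 tested probe sets, TUBB 212320_at, TUBB2A 204141_at, TUBB6 209191_at and TUBA4A 212242_at carry neither _x_at nor _s_at.

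Because this pair stood opposite ways in the lines, the promoter windows of both genes are shown, from 250 bases before to 50 after the RefSeq start on the minus strand, chr6:3157495-3157794 for TUBB2A and chr6:3227604-3227903 for TUBB2B (GRCh38.p14). Capitals mark matches on either strand to the TATA box motif TATAAA, the CCAAT motif, the cAMP response element TGACGTCA, and ACGTCA, which ends that element.
TUBB2A: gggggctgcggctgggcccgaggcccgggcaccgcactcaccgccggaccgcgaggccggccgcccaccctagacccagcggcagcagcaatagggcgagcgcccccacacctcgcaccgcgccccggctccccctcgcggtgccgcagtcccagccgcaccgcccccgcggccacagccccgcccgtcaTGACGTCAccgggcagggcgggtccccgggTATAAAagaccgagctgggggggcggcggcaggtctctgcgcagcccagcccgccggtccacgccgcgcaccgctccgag
TUBB2B: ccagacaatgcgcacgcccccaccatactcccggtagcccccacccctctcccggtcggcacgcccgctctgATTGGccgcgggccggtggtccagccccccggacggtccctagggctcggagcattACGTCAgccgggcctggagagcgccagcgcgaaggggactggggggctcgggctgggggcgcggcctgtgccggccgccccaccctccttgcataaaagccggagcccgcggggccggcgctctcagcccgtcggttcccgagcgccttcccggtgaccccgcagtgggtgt
TUBB2A held 1 TATAAA, found in 11.5% of all 35116 promoter windows, and 1 TGACGTCA, found in 1.85%. TUBB2B held neither, and held 1 ACGTCA, found in 7.98%, and 1 CCAAT, found in 34.6%. ACGTCA lies inside TGACGTCA, so that the TUBB2A window counts for both. All 10 genes matched the promoter table, with 17 windows. The STAT motif TTCNNNGAA, searched on both strands, had 0 matches in these 17, against 7.66% of all windows. A match or its absence describes these letters only.

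TUBB3 encodes the beta-tubulin of neurons that many carcinomas also make. Its probe set 202154_x_at was in Caov-3 at 4700.2 with siltuximab and IL-6, 4307 with IL-6 and 3864 untreated. SKOV-3 had 10738 with siltuximab and IL-6, 10690.5 with IL-6 and 9286 untreated. The other probe set, 213476_x_at, was in Caov-3 at 7054.5, 8235 and 7493, and in SKOV-3 at 12471, 10513 and 12098, in the same order of treatments. Both had every Caov-3 array below every SKOV-3 array. The line differences were -1.25 (SE 0.064, limma adjusted p 8.28e-05) and -0.62 (SE 0.102, limma adjusted p 0.00405), so that the probe sets gave one direction and unlike sizes. Of a list of 11 other neuronal markers, 8 were below the median on all 6 arrays, and the summed signal of the 11 was 803 to 1043 in Caov-3 and 363 to 522 in SKOV-3. With UCHL1 and ENO2 added the sum was 20055 to 22613 in Caov-3 and 1021 to 1373 in SKOV-3.

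TUBB4B, a beta-tubulin that most tissues make and that is prominent in cilia, was lower in Caov-3 by both probe sets. 213726_x_at was in Caov-3 at 12217.5 with siltuximab and IL-6, 12467 with IL-6 and 12753.5 untreated, against 19464.5, 17773 and 20817 in SKOV-3. The difference was -0.63 (SE 0.0648, limma adjusted p 0.000733), and 208977_x_at gave -0.62 (SE 0.104, limma adjusted p 0.00446).

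TUBB6, a more divergent beta-tubulin found in many tissues, was in Caov-3 at 7569 with siltuximab and IL-6, 8500.2 with IL-6 and 7527 untreated. SKOV-3 had 5647, 5560.3 and 5789.9, all below Caov-3, and the difference was 0.47 (SE 0.0742, limma adjusted p 0.00351), or 1.39-fold.

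TUBB, the beta-tubulin that dividing cells use most widely, had 3 probe sets that were unlike. 212320_at was in Caov-3 at 20106 with siltuximab and IL-6, 20136 with IL-6 and 16053 untreated, against 12782, 11048 and 12976.5 in SKOV-3, a difference of 0.61 (SE 0.112, limma adjusted p 0.00622). The other probe sets, 209026_x_at and 211714_x_at, overlapped between the lines, with differences of 0.22 each (SE 0.0661 and 0.0651, limma adjusted p 0.0365 and 0.0325). Their calls were lost when any 1 of the 6 arrays was left out (limma adjusted p 0.0597 to 0.138), and after quantile normalization (0.267 and 0.0867).

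Of the alpha-tubulins, TUBA4A, an isotype whose coding sequence lacks the usual last tyrosine, was in Caov-3 at 3406 with siltuximab and IL-6, 3864 with IL-6 and 3684 untreated. In SKOV-3 it was at 2750.0, 2679.7 and 2613, and the difference was 0.44 (SE 0.0808, limma adjusted p 0.00605). TUBA1A, the main alpha-tubulin of developing neurons, was in Caov-3 at 3149, 3407 and 3327 against 2735, 2973 and 2810.0 in SKOV-3, in the same order of treatments. Its difference of 0.21 (SE 0.0705, limma adjusted p 0.0472) was near the threshold, and was no call without either untreated array (0.185 and 0.186) or without either siltuximab array (0.2 and 0.202). TUBA1C, a widely used alpha-tubulin, overlapped between the lines in both probe sets, with differences of 0.03 (SE 0.0588) and 0.06 (SE 0.0512) that did not pass and that turned to -0.05 and -0.01 after quantile normalization.

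STMN1 (200783_s_at) was in Caov-3 at 2216 with siltuximab and IL-6, 2939 with IL-6 and 2039 untreated, and in SKOV-3 at 3229.7 with siltuximab and IL-6, 3416 with IL-6 and 2964.5 untreated. Every Caov-3 array lay below every SKOV-3 array, the one with IL-6 by a narrow margin. The line difference was -0.43 (SE 0.0966, limma adjusted p 0.0129). The call was lost without the untreated array of Caov-3 or SKOV-3 (limma adjusted p 0.0826 and 0.0858) or without their siltuximab arrays (0.0916 and 0.0952).

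**Figure D2:**
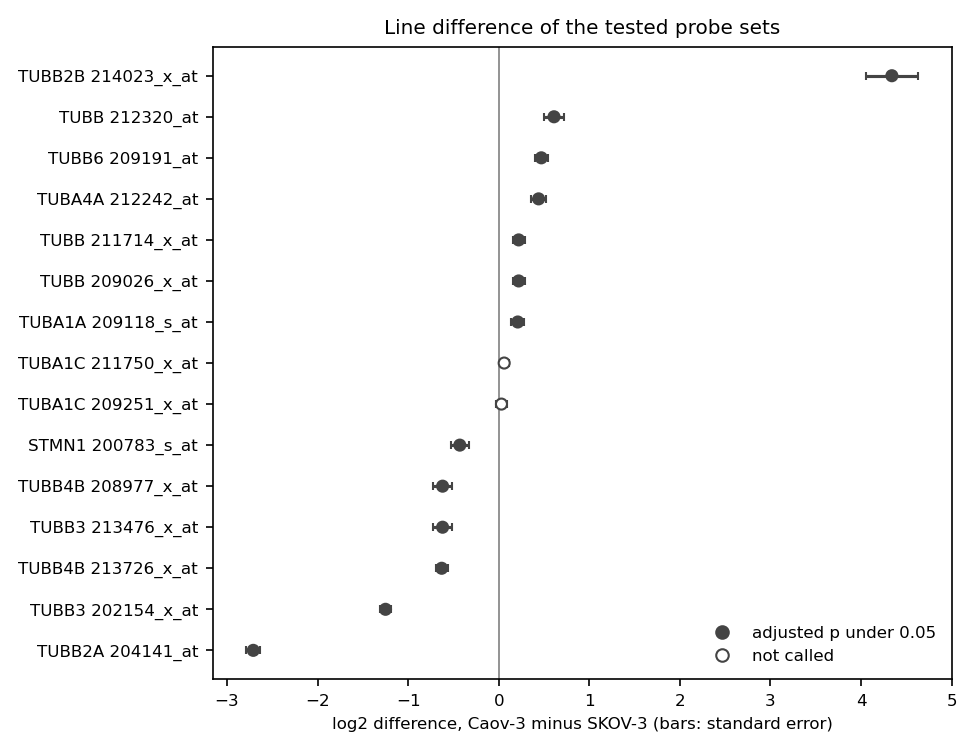
Log2 difference of Caov-3 minus SKOV-3 (horizontal axis) for the 15 tested probe sets, as points with bars of 1 standard error from limma, filled where the adjusted p was under 0.05. TUBB2B stands at 4.34 and TUBB2A at -2.71, and the 2 open points are TUBA1C.

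Between the treatments of a line, no tested member was 1.5-fold apart. In Caov-3 0 of 15 tested probe sets were at least 1.5-fold apart between IL-6 and untreated, against 24.3% of all probe sets and 3.22% in the brightest of 10 expression groups. SKOV-3 had 0 of 14, against 14.5% and 0.892%. Between siltuximab plus IL-6 and IL-6 it was 0 of 15 in Caov-3 (20.5% of all, 1.67% of the brightest) and 0 of 14 in SKOV-3 (9.97% and 0.521%). Siltuximab plus IL-6 against untreated gave 0 of 15 in Caov-3 (10.6% and 0.727%) and 0 of 14 in SKOV-3 (12.3% and 0.379%). TUBB2B was below the median in SKOV-3 and was not counted there. These folds set 1 array against 1 array, with no replicate check and no p-value.

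Over both lines, limma called 0 of 15 member probe sets for IL-6 against untreated (5 at an unadjusted p under 0.05), where 0.0% of all 31006 were called and 7.33% had an unadjusted p under 0.05. It called 0 of 15 for siltuximab plus IL-6 against IL-6 (0 at an unadjusted p under 0.05, against 2.4% of all), and 0 of 15 for siltuximab plus IL-6 against untreated (5, against 4.17%). The comparisons with untreated share the 2 untreated arrays, and both comparisons with IL-6 share the 2 IL-6 arrays. The smallest adjusted p of a member was 0.623, 0.98 and 0.999 in the order named.

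**Figure D3:**
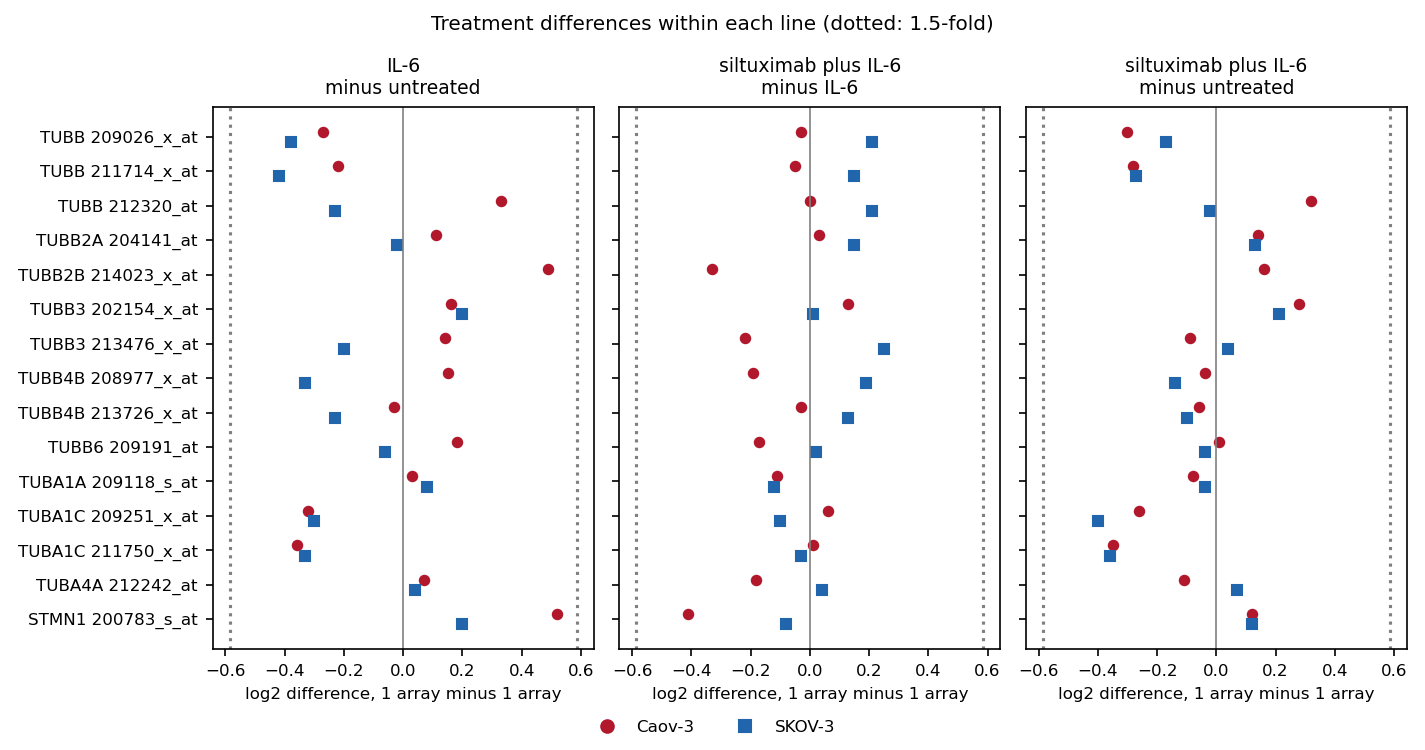
Log2 difference between 2 arrays of a line (horizontal axis) for the tested probe sets, in 3 panels by comparison, with Caov-3 as red circles and SKOV-3 as blue squares. No point passes the dotted lines at 1.5-fold, and the TUBA1C points lie below 0 in both lines where a treated array is set against an untreated one.

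The 5 members at an unadjusted p under 0.05 for IL-6 were the probe sets of TUBA1C, 2 of those of TUBB and STMN1. For siltuximab plus IL-6 against untreated they were the same probe sets of TUBA1C and TUBB, and TUBB3 202154_x_at. That TUBB3 difference was 0.25 (limma unadjusted p 0.0227, adjusted p 0.999). TUBA1C (211750_x_at) was at 24793 with IL-6 and 31723 untreated in Caov-3, and at 24119 with IL-6 and 30289 untreated in SKOV-3. With siltuximab and IL-6 it stood at 24944 in Caov-3 and 23603.5 in SKOV-3. In both lines, then, the untreated array was the highest. The IL-6 difference was -0.34 (SE 0.0627, unadjusted p 0.00208, limma adjusted p 0.623). The other TUBA1C probe set gave -0.31, and TUBB 209026_x_at and 211714_x_at gave -0.32 each. The third TUBB probe set, 212320_at, did not share that order, at 0.33 in Caov-3 and -0.23 in SKOV-3.

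The bright end of all probe sets moved the same way on the same arrays. The median signal of the 100 brightest was 39768 with siltuximab and IL-6, 39143 with IL-6 and 44983 untreated in Caov-3, and 36071, 37999.6 and 45397 in SKOV-3. After quantile normalization, which gives every array one distribution, the IL-6 difference of TUBA1C was -0.16 (211750_x_at) and -0.11 (209251_x_at). After cyclic loess it was -0.3 and -0.27. The part of the bright end in these differences was not tested beyond that.

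STMN1 (200783_s_at) stood 1.44-fold above untreated with IL-6 in Caov-3 (log2 difference 0.52) and 1.15-fold in SKOV-3 (0.2). With siltuximab plus IL-6 against IL-6 it stood at -0.41 in Caov-3 and -0.08 in SKOV-3. For comparison, the robust SD of IL-6 differences among probe sets of like expression was 0.236 in Caov-3 and 0.208 in SKOV-3. Over both lines the IL-6 difference was 0.36 (SE 0.118, unadjusted p 0.0244, limma adjusted p 0.669). The high Caov-3 value rests on the array whose ACTB ratio was the lowest (0.494) and whose GAPDH ratio (1.053) lay within the range of the others. A probe set that names STMN1 and the microRNA gene MIR3917 (217714_x_at) was lowest on that array, at 484 with siltuximab and IL-6, 224.5 with IL-6 and 614 untreated, and in SKOV-3 at 505.5, 592 and 607. The dim STMN1 1552803_a_at was also lower with IL-6 in Caov-3, at 16.7 against 68.5 untreated. The readings of STMN1 thus stood opposite ways there. Averaged over both probe sets that name STMN1 alone, the IL-6 difference was -0.45 in Caov-3 and 0.66 in SKOV-3. TUBB2B, like STMN1 200783_s_at, was highest in Caov-3 with IL-6 (894 against 631 untreated, log2 difference 0.49). The part of RNA quality in either value was not tested. When the SKOV-3 IL-6 array was left out, so that IL-6 stood on Caov-3 alone, 3 members were called, STMN1 (0.53, limma adjusted p 0.0201) and both TUBA1C probe sets (-0.35 and -0.36, limma adjusted p 0.0471 and 0.0353), and so were 9.11% of all probe sets. Leaving out the IL-6 array of Caov-3 instead gave 0 members and 0.0129% of all.

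TUBB3, which is of interest for taxane response, gave no order of treatments common to both probe sets. In both lines 202154_x_at was lowest untreated and highest with siltuximab plus IL-6, whereas the order of 213476_x_at differed between the lines. 202154_x_at was at log2 differences of 0.16 in Caov-3 and 0.2 in SKOV-3 for IL-6 against untreated, whereas 213476_x_at was at 0.14 and -0.2. For siltuximab plus IL-6 against IL-6 the first was at 0.13 and 0.01 and the second at -0.22 and 0.25. Against untreated, siltuximab plus IL-6 gave 0.28 and 0.21 for the first and -0.09 and 0.04 for the second.

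Other genes of the microtubule system were followed by lists, with a gene read by its brightest probe set. In that reading 63.3% of 13189 genes were called between the lines, 34.7% higher and 28.5% lower in Caov-3, and 9 of the 10 members (5 higher and 4 lower). The lists below were 0 higher and 0 lower in all 3 treatment comparisons of limma, as were all genes.

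Among other tubulins and stathmins, 1 of 7 tested genes was higher in Caov-3 and 3 were lower (median -0.43). STMN3, a stathmin relative known from neurons, was at 307, 317.5 and 242 in Caov-3 (siltuximab and IL-6, IL-6, untreated) and at 6089.5, 5772 and 5293 in SKOV-3, a difference of -4.25 (SE 0.0973, limma adjusted p 1.67e-05). TUBE1, the epsilon-tubulin of centrioles, and TUBG1, the gamma-tubulin that nucleates microtubules, were also lower (-1.37 and -0.81, limma adjusted p 0.000347 and 0.000596). TUBD1, the delta-tubulin, was higher (1.35, limma adjusted p 0.00219). TUBA1B, a close relative of TUBA1C, overlapped between the lines (0.05, limma adjusted p 0.513).

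Folding cofactors and chaperones, which carry new tubulin to its dimer, had 5 of 20 higher and 7 lower (median -0.08). Without either untreated or either siltuximab array the number higher was 2. The prefoldin subunit PFDN2 (-2.35) and the chaperonin subunits CCT3 (-1.28) and CCT2 (-1.17) were lower, with limma adjusted p of 6.87e-05 to 0.000171. PFDN5 (0.79) and the cofactors TBCD (0.58) and TBCC (0.57) were higher.

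Microtubule-associated proteins, which bind and steady the polymer, had 6 of 16 higher and 6 lower (median 0.18) and were spread most widely. MAP7D2 (5.03) and MAP7 (4.88), which recruit kinesin, and MAP1B (3.22), known from growing axons, were higher. MAP9 (-4.88), EML1 (-3.48) and MAPT (-2.85), the gene of tau, were lower. MAP7 was at 1994 to 2191 in Caov-3 and at 46.8 to 78.4 in SKOV-3, and MAPT at 16.2 to 69.8 in Caov-3 and 316 to 509 in SKOV-3, all of them below the array's median in the low line. MAP7D2, MAP9 and EML1 were likewise below it on all 3 arrays of the low line. These 5 thus passed the filter through the high line alone and had to differ. So did MAP2, also called higher (2.0), at 33.5 to 54.0 in SKOV-3.

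Plus-end and assembly factors had 5 of 23 higher and 9 lower (median -0.17). MAPRE1, which tracks growing ends (-1.33), the polymerase CKAP5 (-1.32) and TUBGCP3 of the nucleating ring (-0.91) were lower. TUBGCP6 (1.52), TACC3 (0.87) and TUBGCP2 (0.86) were higher. Severing and depolymerising proteins had 3 of 10 higher and 4 lower (median -0.19), with FIGN (3.22), KIF2C (0.56) and KATNA1 (0.43) higher and KIF18A (-1.41), KIF2A (-0.93) and FIGNL1 (-0.6) lower.

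Tubulin-modifying enzymes had 7 of 17 higher and 3 lower (median 0.15), with 4 higher without either untreated array. The tubulin glutamylase TTLL7 (2.54), and SVBP (1.49) and VASH1 (1.0), which together remove the last tyrosine of alpha-tubulin, were higher. AGTPBP1 (-2.7), which trims glutamates, TTLL4 (-1.09), which adds them, and TTL (-0.24), which puts the tyrosine back, were lower. Mitotic spindle genes had 5 of 20 higher and 10 lower (median -0.35), with 3 higher without either siltuximab array. TTK (1.41), KIF23 (0.85) and NUMA1 (0.78) were higher and PLK1 (-0.92), AURKB (-0.9) and KIF20A (-0.87) lower. The calls of TBCC, KATNA1, VASH1 and TTL were lost without either untreated array or either siltuximab array (limma adjusted p 0.0593 to 0.245). Of 13 neuronal markers, 5 were tested, and ENO2 (2.97), UCHL1 (8.17) and INA (2.67) were higher and 0 lower. UCHL1 and INA, like FIGN and VASH1 above, were below the median on all SKOV-3 arrays, so that they passed the filter through Caov-3 alone and had to be higher there. Of the 13 listed, 8 were below the median on all arrays.

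**Figure D4:**
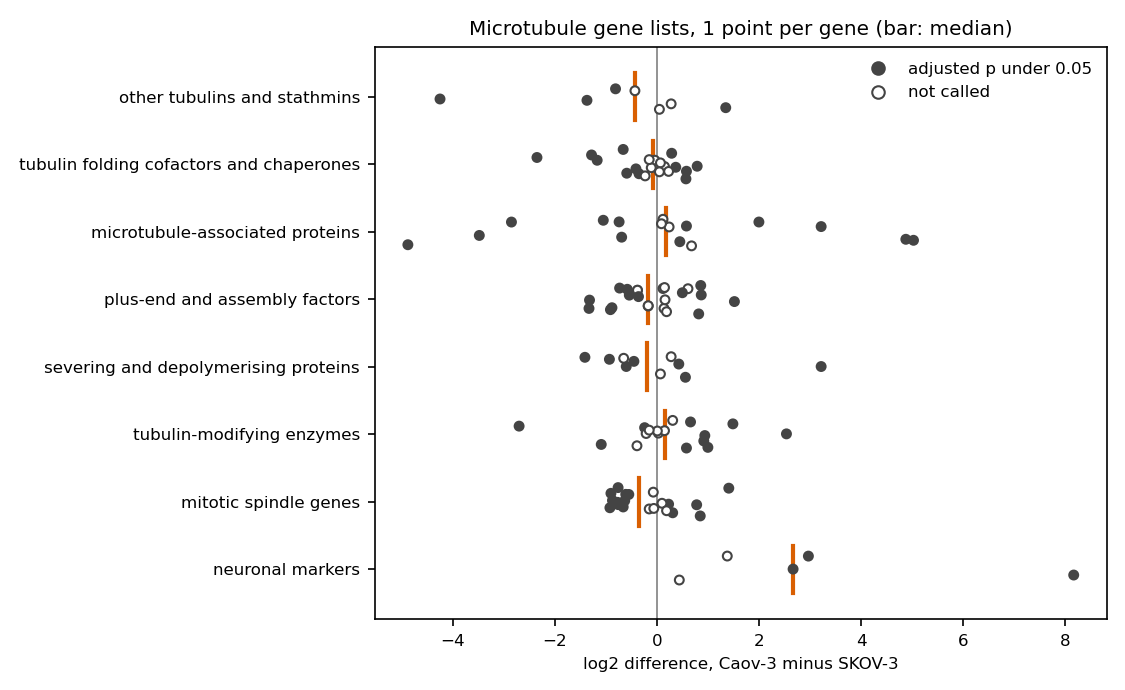
Log2 difference of Caov-3 minus SKOV-3 (horizontal axis) for the tested genes of 8 lists, 1 point per gene, filled where the limma adjusted p was under 0.05, with an orange bar at the list's median. Microtubule-associated proteins run from -4.88 to 5.03, and mitotic spindle genes have a median of -0.35.

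Genes with the profile nearest to a member were taken by Euclidean distance between log2 values centred on their mean over the 6 arrays. They were PPCDC (0.061), POLR1D (0.073) and MAPKAP1 (0.09) for TUBB3 213476_x_at, ANAPC5 (0.045), NFATC1 (0.078) and REEP5 (0.084) for TUBB6, and TXNDC9 (0.066), PHTF2 (0.092) and RALY-AS1 (0.124) for STMN1. All 9 share the 6 arrays and their scaling with the member, and among 13189 genes near profiles are easily found. TXNDC9, for example, was at 3731 with siltuximab and IL-6, 4802 with IL-6 and 3442 untreated in Caov-3, and at 5197, 5506 and 4851.5 in SKOV-3, with IL-6 the highest of each line, as in STMN1.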

How the data were processed

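The authors deposited 1 linear signal intensity for each probe set and array. Expression Console (Affymetrix) and MAS5 are named per the submitters' processing notes, without a version. The authors pooled RNA of 3 flasks per array, per the labels' protocols. Depth has no meaning for arrays, and their number limits precision. No detection calls were used. Of 54675 probe sets, 62 controls were left out. Values were taken to log2 after adding 14.06, the 20th percentile of all values. Probe sets with at least 2 of 6 arrays at or above the array's median were fitted with limma 3.58.1 (R 4.3.3), with line and treatment as factors, a trended prior and 2 residual degrees of freedom, and p-values were adjusted by Benjamini-Hochberg over all 31006. The code was tested on simulated data. A difference within a line enters if its higher array is at or above the array's median. A gene outside the members was read by its probe set of highest mean log2 value. From each list the 3 called genes with the largest line difference in each direction were named. Besides these, 3 nearest profiles for each of 3 members, TUBA1B, MAP2 and the marker genes were named. Members were picked by the symbols of the array annotation. For lists and gene counts these were replaced by RefSeq's symbol where the Entrez gene number matched (41037 of 41091 probe sets that name 1 gene). Promoters are RefSeq's (GRCh38.p14). Members and lists were chosen with earlier results of these data known. Calculations used Python 3.11.15.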

Additional observations from a re-analysis of the deposited data

How the results depend on the processing

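The 13 line calls were recomputed under 14 or 15 alternatives each (pseudocount, filter, scaling, prior, treatment block, each array left out, probe set choice), and 9 probe sets of 7 genes (TUBB 212320_at, TUBB2A, TUBB2B, both of TUBB3, both of TUBB4B, TUBB6 and TUBA4A) kept direction and call in all of them. TUBB2B passed the filter only through the Caov-3 arrays, so that its difference was built in and its kept call says nothing on stability. The other 4, of TUBB, TUBA1A and STMN1, kept direction, each within its own probe set. They lost the call in some alternatives, among them the fit with no trended prior (limma adjusted p 0.0602 for STMN1). Averaging a gene's probe sets is not among these alternatives. The dim STMN1 probe set, 1552803_a_at, stood at 0.56 between the lines, opposite to -0.43 for 200783_s_at. The number of member probe sets called was 9 to 11 with 1 array left out, and of genes 6 to 8. When _x_at and _s_at probe sets were dropped it was 4 and 4, which are all the tested members with other names. TUBA1C, never called between the lines, turned from 0.03 to -0.05 (209251_x_at) and from 0.06 to -0.01 (211750_x_at) after quantile normalization, and 209251_x_at to -0.00 after cyclic loess and -0.02 without either siltuximab array, for causes not tested. For IL-6 the number called was 0 to 3 probe sets and 0 to 2 genes with 1 array left out (3 without the SKOV-3 IL-6 array, where 9.11% of all probe sets were called), and 0 in every run of both comparisons of siltuximab plus IL-6. Members at least 1.5-fold apart within a line numbered 0, but with no filter 1 in each comparison of Caov-3, 1 for IL-6 and 1 for siltuximab plus IL-6 against IL-6 in SKOV-3, and 2 for siltuximab plus IL-6 against untreated in SKOV-3, since dim probe sets then enter. After cyclic loess 1 member passed for IL-6 in Caov-3, and when a gene's probe sets were averaged 1 for IL-6 and 1 for siltuximab plus IL-6 against untreated in SKOV-3. Of the list counts, folding genes higher in Caov-3 were 5, and 3 with no trended prior or 2 without _x_at and _s_at probe sets. Modifying enzymes higher were 7, and 3 with the filter at the 75th percentile or 2 with averaged probe sets; those lower were 3, and 1 with averaged probe sets. Spindle genes higher were 5, and 3 with no trended prior or averaged probe sets; neuronal markers higher were 3, and 5 with averaged probe sets. Dropping _x_at and _s_at probe sets also left 3 of 5 higher plus-end genes and 1 of 3 lower modifying enzymes. The line comparison matches arrays by treatment, and with line alone 11 member probe sets and 8 genes were called. Beyond that matching, with replicate numbers, no paired analysis was possible because each group is 1 array. Signal near the pseudocount limits TUBB2B in SKOV-3 and STMN1 1552803_a_at.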
